A study of Mus musculus with 8 samples.

Results

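The genes described here encode the Slc25 mitochondrial carriers, the family of membrane proteins that move metabolites across the inner mitochondrial membrane, together with the uncoupling proteins Ucp1 and Ucp3, which belong to the same family. The family and the gene lists set beside it were chosen with earlier results of these data known. Members of the family were then taken by symbol alone (Slc25a followed by a number, or Ucp1, Ucp2 or Ucp3) among protein-coding mouse genes, whatever their signal. Of the 50 such genes in RefSeq, 48 had a probe set that names exactly 1 gene, out of 30627 genes measured in this way, and each of the 48 was read by a single such probe set. The others, Ucp2 among them, are not analysed here.

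Liver RNA came from 8 male C57BL/6 mice, made hypercholesterolaemic by 13 weeks of high fat feeding, of an age that the labels do not give. In the anti-miR-128-3p group, 4 mice then received 5 intraperitoneal injections of anti-miR-128-3p, which is designed to block the microRNA named in it, and in the control group 4 mice received 5 control injections, which a single label calls vehicle. One protocol field names the microRNA itself instead of its inhibitor, and the groups here follow the sample titles. Each array was taken as 1 mouse, since the titles number the mice. The values are log2 signals summarised per probe set with RMA, and a difference is always anti-miR-128-3p minus control on that log2 scale.

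Most carriers share a fold, built from repeated pairs of membrane-spanning helices, and exchange a substrate in the matrix for another in the intermembrane space. In hepatocytes they connect the cytosol with beta-oxidation, the urea cycle, gluconeogenesis, fatty acid synthesis, heme synthesis and ATP export. Some of their genes follow the supply of fatty acids through the receptor PPARα, of which Slc25a20 is a known target. The microRNA that the injections were meant to block is printed here because every comparison below turns on it. It is encoded at 2 places in the mouse genome, chr1:128202404-128202424 on the plus strand (Mir128-1) and chr9:112118644-112118664 on the minus strand (Mir128-2), with the same mature sequence (RefSeq, GRCm38.p6), in which capitals mark the seed, bases 2 to 8.
mmu-miR-128-3p: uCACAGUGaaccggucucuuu

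Across the family, signals were slightly lower in livers of mice given anti-miR-128-3p. Of the 48 carriers, 40 had a negative difference and 8 a positive one, with a median difference of -0.10, whereas 50.9% of all genes had a negative difference and the median over all genes was -0.0017. Among the 19100 protein-coding genes 54.8% were lower. None of the carriers passed limma's test after Benjamini-Hochberg adjustment over all genes: 0 carriers were called, against 0% of all genes, and the smallest adjusted p of a carrier was 0.261 by limma. At an unadjusted limma p under 0.05, 7 carriers were lower and 0 higher. Those 7 are 14.6% of the carriers, where 3.37% of all genes were called lower, 4.26% higher and 7.63% in either direction. In 2 carriers, Slc25a20 and Slc25a30, every treated liver lay below every control liver, or 4.17% of the carriers against 1.89% of all genes, and in 0 carriers did every treated liver lie above, against 2.52% of all genes. The count of 7 moved with single livers: leaving out treated replicate 1 gave 3 (6.25%, against 2.44% of all genes) and treated replicate 2 gave 11 (22.9% against 3.81%). Leaving out control replicate 1 or control replicate 4 gave 4 each (8.33%), against 3.44% and 3.09% of all genes. The number of carriers below 0 ranged from 38 to 43 when each liver was left out in turn, and the median ranged from -0.11 to -0.06 and was -0.06 without treated replicate 1. With a liver left out, separation of the groups can only stay or be gained. Lower carriers without overlap then numbered 7 (14.6%) without treated replicate 2, where the share of all genes was 3.99%, and 7 without control replicate 2, where it was 3.94%. Their number was 2 or 3 without any other liver, where that share was 2.89% to 3.5%. They were also 3 with arrays centred on their medians or quantile-normalised again, where the share of all genes was not counted.

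**Figure D1:**
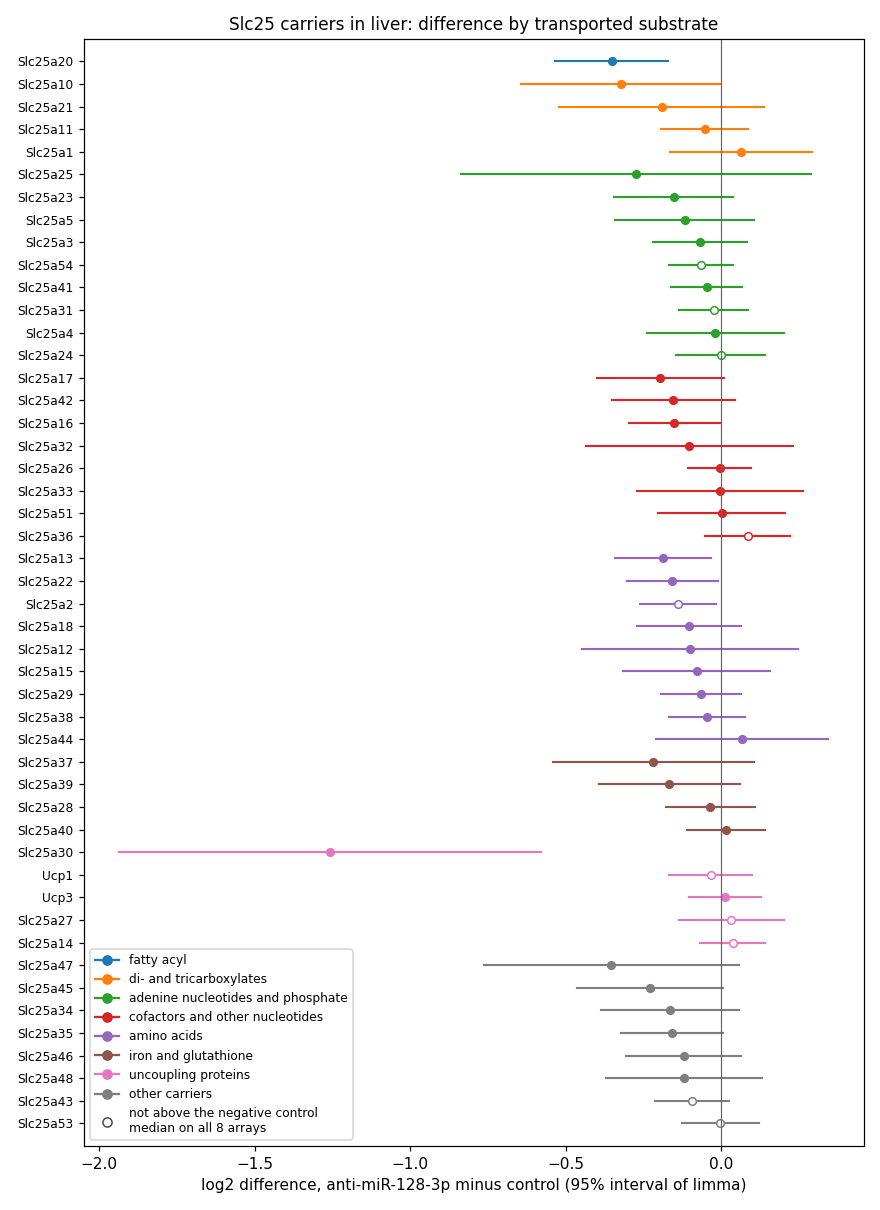
Log2 difference, anti-miR-128-3p minus control, of each of the 48 carriers (points) with limma's 95% interval (lines), coloured by transported substrate. Open points are the 10 carriers whose signal did not exceed the median of the negative control rows on all 8 arrays. Slc25a30 stands furthest to the left at -1.26, and 40 of the 48 points lie left of 0.

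The arrays resembled each other closely, with correlations across genes of 0.992 to 0.996 and medians over genes of 5.04 to 5.12. The 5222 negative control rows had medians of 4.32 to 4.48, and 38 of the 48 carriers were brighter than that median on every array. The negative control rows spread widely: their 95th percentile was 7.40 to 7.53, and 18 carriers were above it on every array and 23 on none. Ucp3, Slc25a40 and Slc25a41 were among those 23. Slc25a20 was above it on every array and Slc25a30 on all except treated replicate 2. The 10 carriers not above the negative control median on every array were Slc25a2, Slc25a14, Slc25a24, Slc25a27, Slc25a31, Slc25a36, Slc25a43, Slc25a53, Slc25a54 and Ucp1. Their differences are given without a fold. Hepatocyte markers (11 of 12 measured, median difference -0.02) had array scores from -0.11 to 0.18 in treated and from -0.18 to 0.15 in control livers. A score is the mean over a list of each gene's signal minus its mean over the 8 arrays. Markers of other liver cells mostly lay to one side of 0: 13 of 14 Kupffer cell and macrophage markers were higher (scores from -0.30 to 0.70 in treated and from -0.89 to 0.10 in control livers), 9 of 12 stellate cell and fibroblast markers were higher (-0.17 to 1.00 and -0.35 to -0.16) and 9 of 10 sinusoidal endothelial markers were lower (-0.30 to 0.13 and -0.21 to 0.32). Their part in the carrier differences was not tested, and in whole liver fewer cells of a type and less RNA per cell cannot be told apart.

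The carnitine-acylcarnitine carrier Slc25a20 brings long-chain acylcarnitines into the matrix for beta-oxidation and was the carrier with the smallest p. Its signal was 9.61, 9.82, 9.72 and 9.83 in treated livers and 9.99, 10.03, 10.06 and 10.31 in control livers. The groups did not overlap, and control replicate 4 was the highest of the 8 livers. The means were 9.74 ± 0.10 in treated and 10.10 ± 0.14 in control livers (SD, n = 4 each), a difference of -0.35 ± 0.08 (SE) or a 1.28-fold lower signal, with an adjusted p of 0.261 by limma. Without control replicate 4 the difference was -0.28.

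Genes that work beside Slc25a20 in carnitine transport and long-chain fatty acid oxidation had negative differences in 11 of the 11 measured of 12 listed. The median difference was -0.21, and the range ran from -0.38 to -0.0004, so not every gene of the list was clearly lower. At an unadjusted limma p under 0.05, 4 of them were lower and 0 higher, against 3.37% and 4.26% of all genes, and 0 passed the adjusted test. The plasma membrane carnitine transporter Slc22a5 was at 6.92, 6.80, 6.98 and 7.05 in treated livers and at 7.50, 7.32, 7.24 and 7.22 in control livers, a difference of -0.38 ± 0.08. Cpt2, which turns acylcarnitine back into acyl-CoA once Slc25a20 has carried it across, was at 9.41, 9.65, 9.56 and 9.67 in treated and 10.03, 9.77, 9.99 and 9.95 in control livers, a difference of -0.36 ± 0.08. Neither gene's groups overlapped. Hadhb, a subunit of the trifunctional protein of beta-oxidation, differed by -0.22 ± 0.05 without overlap, and the medium-chain dehydrogenase gene Acadm by -0.20 ± 0.08 with overlap.

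Slc25a30, a relative of the uncoupling proteins known from kidney, had the most negative difference of the 48 carriers. It was at 7.67, 7.49, 8.27 and 7.75 in treated livers and at 8.54, 8.78, 8.90 and 9.99 in control livers. All treated livers lay below all control livers, and control replicate 4 stood well above the other controls. The means were 7.80 ± 0.33 in treated and 9.05 ± 0.64 in control livers (SD, n = 4 each), a difference of -1.26 ± 0.30 (SE), with a 95% interval from -1.94 to -0.58, or a 2.39-fold lower signal. It did not pass the adjusted test (limma adjusted p = 0.295). Leaving out control replicate 4 gave a difference of -0.94 and leaving out control replicate 1 gave -1.43.

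The other uncoupling proteins measured had differences close to 0. Ucp3, the muscle form, was at 4.85, 4.70, 4.82 and 4.76 in treated livers and at 4.82, 4.70, 4.80 and 4.76 in control livers, and these overlapped, with a difference of 0.01 and a 95% interval from -0.10 to 0.13. Its signal was above the negative control median on every array but well below the 95th percentile of those rows (7.40 to 7.53), which limits what the small difference shows. Ucp1, which carries the proton leak of brown fat, was at 3.39, 3.25, 3.38 and 3.37 in treated and 3.44, 3.25, 3.44 and 3.39 in control livers, below the negative control median on every array. Of the 8 fat cell and brown fat markers measured of 10 listed, Adipoq, Lep and Dio2 were below that median on every array and Retn was above it on 3 arrays. The other 4 (Plin1, Cidea, Elovl3 and Cox7a1) were above it on every array. The median difference of the 8 was 0.03, with scores from -0.03 to 0.13 in treated and from -0.25 to 0.15 in control livers. The brain relatives Slc25a14 and Slc25a27 were also below it throughout, with differences of 0.04 and 0.03.

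**Figure D2:**
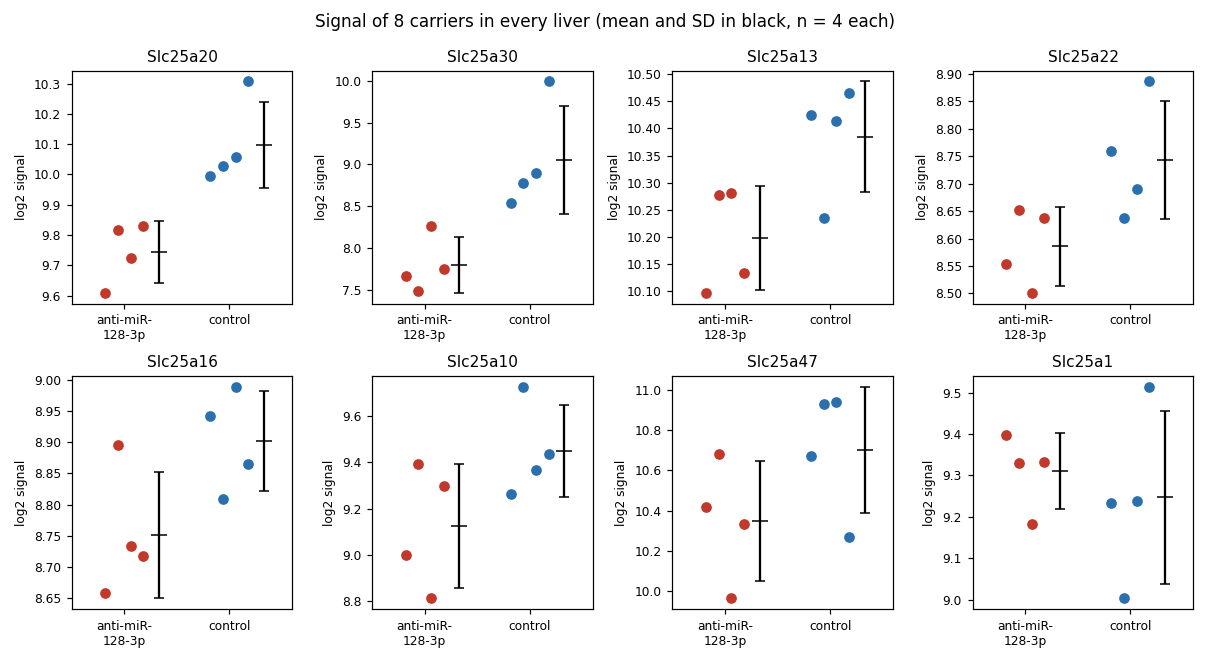
Log2 signal of 8 carriers in each liver, 4 treated (left in each panel) and 4 control (right), with the group mean and SD in black and a separate vertical axis per gene. The groups are apart in Slc25a20 and Slc25a30 and overlap in the other 6, with Slc25a1 the only one of the 8 whose treated mean is the higher.

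The promoters of Slc25a20 and Slc25a30 are printed because these were the 2 carriers whose groups did not overlap. Each line gives the 250 bases before the gene start from RefSeq (GRCm38.p6), at chr9:108661886-108662135 on the plus strand for Slc25a20 and at chr14:75787038-75787287 on the minus strand for Slc25a30. Capitals mark GC boxes (GGGCGG on either strand) and CCAAT boxes (CCAAT on either strand), whose matches did not overlap.
Slc25a20: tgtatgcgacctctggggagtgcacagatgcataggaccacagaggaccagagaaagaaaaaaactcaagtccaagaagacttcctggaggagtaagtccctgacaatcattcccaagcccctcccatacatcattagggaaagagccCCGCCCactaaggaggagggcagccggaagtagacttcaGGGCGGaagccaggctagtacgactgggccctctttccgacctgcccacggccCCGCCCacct
Slc25a30: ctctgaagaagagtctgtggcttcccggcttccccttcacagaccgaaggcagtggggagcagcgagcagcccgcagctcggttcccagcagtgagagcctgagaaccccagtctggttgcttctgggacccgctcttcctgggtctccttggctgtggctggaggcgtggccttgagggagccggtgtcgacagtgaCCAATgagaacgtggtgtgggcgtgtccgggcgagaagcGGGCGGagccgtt

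Slc25a20 held 3 GC boxes in this window, and Slc25a30 held 1 GC box and 1 CCAAT box. Promoter windows were at hand for 38 of the 48 carriers (48 windows, some genes having several). A GC box stood in 32 of these windows, or 66.7%, against 32.7% of all 32851 windows of the same length, and a CCAAT box in 21, or 43.8%, against 33.8%. The GC box windows belong to 25 carriers and the CCAAT box windows to 18. All windows were not matched to those of the carriers in base composition. The E-box CACGTG was found in 8 of the 48 carrier windows, against 6.02% of all windows. These belong to 7 carriers, among them the citrate carrier Slc25a1, citrin (Slc25a13) and the ornithine carrier Slc25a15. The nuclear receptor half-site AGGTCA, searched on both strands, stood in 6 of the 48 carrier windows, against 14% of all windows. These belong to Slc25a34, Slc25a39, Slc25a45, Slc25a47, Ucp1 and Ucp3, and neither printed window holds the half-site. The direct repeat of that half-site with a spacer of a single base (DR1), the form of a PPARα element, was in 0 carrier windows and in 0.0335% of all windows. TATAAA was in 2 of the 48 carrier windows, against 12.4% of all windows, and the palindromic NRF1 core in 0 carrier windows and 0.782% of all. A window without a match says only that these letters are not in it.

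Of the 9 amino acid carriers, 8 were lower. Their median difference was -0.10, and 3 of them, the dim Slc25a2 included, were lower at an unadjusted limma p under 0.05, against 3.37% of all genes. Citrin, the aspartate-glutamate carrier of the liver and a step of the malate-aspartate shuttle and of the urea cycle (Slc25a13), was at 10.10, 10.28, 10.28 and 10.13 in treated and 10.42, 10.23, 10.41 and 10.47 in control livers. Only control replicate 2 fell among the treated values. The difference was -0.19 ± 0.07, with an adjusted p of 0.562 by limma.

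The glutamate carrier Slc25a22 was at 8.55, 8.65, 8.50 and 8.64 in treated livers and at 8.76, 8.64, 8.69 and 8.89 in control livers, a difference of -0.16 ± 0.06. Its groups overlapped narrowly, at treated replicates 2 and 4 and control replicate 2. Slc25a2, an ornithine carrier, differed by -0.14 ± 0.05, but its signals of 4.26, 4.09, 4.11 and 4.18 in treated and 4.38, 4.29, 4.25 and 4.29 in control livers were at the level of the negative control rows. The main ornithine-citrulline carrier of the urea cycle, Slc25a15, was at 10.22, 10.61, 10.11 and 10.24 in treated and 10.31, 10.43, 10.26 and 10.49 in control livers. Treated replicate 2 was the highest of all 8 for that gene, and the difference was -0.08 with a 95% interval from -0.32 to 0.16. It ran from -0.18 without treated replicate 2 to -0.02 without treated replicate 3. The branched-chain amino acid carrier Slc25a44 was the 1 amino acid carrier with a positive difference, 0.07. The remaining amino acid carriers, Slc25a12, Slc25a18, Slc25a29 and Slc25a38, differed by -0.10, -0.10, -0.07 and -0.05.

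Enzymes of the urea cycle and of mitochondrial amino acid use were mixed: of the 11 measured of 16 listed, 8 were lower, with a median difference of -0.03. Of these enzymes, 0 had an unadjusted limma p under 0.05 in either direction, against 7.63% of all genes. Oat, the ornithine aminotransferase, differed by -0.32 ± 0.21, the proline synthesis gene Aldh18a1 by 0.10 ± 0.08 and the urea cycle gene Otc by -0.19 ± 0.16. In the list of partners of the malate-aspartate shuttle, the citrate carrier and gluconeogenesis, 11 of the 15 measured of 16 listed were lower, with a median of -0.05, and 3 were lower at an unadjusted limma p under 0.05 and 0 higher, against 3.37% and 4.26% of all genes. Got2, the mitochondrial transaminase that supplies the aspartate citrin exports, was at 11.55, 11.67, 11.65 and 11.62 in treated and 11.69, 11.86, 11.80 and 11.90 in control livers, without overlap, a difference of -0.19 ± 0.06. The glycerol phosphate dehydrogenase gene Gpd1 differed by -0.38 ± 0.13 and the pyruvate carboxylase gene Pcx by -0.26 ± 0.09, both with overlap and neither past the adjusted test.

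Of the 4 di- and tricarboxylate carriers, 3 were lower. Slc25a10, the dicarboxylate carrier that exchanges malate or succinate for phosphate, was at 9.001, 9.39, 8.81 and 9.30 in treated and 9.27, 9.73, 9.37 and 9.44 in control livers. Treated replicates 1 and 3 lay below all controls and treated replicates 2 and 4 among them. The difference was -0.32 ± 0.14, a 1.25-fold lower signal with an adjusted p of 0.649 by limma, and it was -0.41 without treated replicate 2 and -0.22 without treated replicate 3. The citrate exporter Slc25a1, which feeds cytosolic fatty acid and cholesterol synthesis, was at 9.40, 9.33, 9.18 and 9.33 in treated and 9.23, 9.003, 9.24 and 9.51 in control livers. Its controls spread wider than its treated livers and enclosed them, and the difference of 0.06 had a 95% interval from -0.16 to 0.29 and ran from -0.02 without control replicate 2 to 0.15 without control replicate 4. The oxoglutarate-malate carrier Slc25a11 and the oxodicarboxylate carrier Slc25a21 differed by -0.05 and -0.19.

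The ADP/ATP, ATP-magnesium and phosphate carriers were lower in 9 of 9 members, but by little (median -0.07). Of the 9, 0 had an unadjusted limma p under 0.05, against 7.63% of all genes in either direction. Slc25a5, the widely expressed ADP/ATP carrier, was at 10.90, 11.27, 11.21 and 10.98 in treated and 11.09, 11.10, 11.25 and 11.38 in control livers, with a difference of -0.12 and a 95% interval from -0.34 to 0.11, and ran from -0.18 without treated replicate 2 to -0.06 without treated replicate 1. The phosphate carrier Slc25a3 was at 7.44, 7.69, 7.51 and 7.53 in treated and 7.54, 7.53, 7.64 and 7.71 in control livers, a difference of -0.07 with an interval from -0.22 to 0.08, which ran from -0.12 without treated replicate 2 to -0.03 without control replicate 4. Both genes' groups overlapped. Slc25a25, a calcium-regulated ATP-magnesium carrier, had the widest spread in the class, at 8.66, 9.52, 8.49 and 9.18 in treated and 8.72, 9.60, 9.32 and 9.30 in control livers. Its difference of -0.27 had an interval from -0.84 to 0.29. Leaving out treated replicate 2 gave -0.46 and control replicate 1 gave -0.44, whereas leaving out treated replicate 3, treated replicate 1 or control replicate 2 gave -0.12, -0.17 or -0.15. Slc25a23 of the same subfamily differed by -0.15 and Slc25a41 by -0.05, and the muscle and heart ADP/ATP carrier Slc25a4 by -0.02. The dim Slc25a54, Slc25a31 (of male germ cells) and Slc25a24 lay between -0.07 and -0.0018.

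Carriers of cofactors and other nucleotides were lower in 6 of the 8 measured, with a median difference of -0.05. Slc25a16, linked to coenzyme A, was at 8.66, 8.90, 8.73 and 8.72 in treated and 8.94, 8.81, 8.99 and 8.87 in control livers. Treated replicate 2 alone lay among the controls, and the difference was -0.15 ± 0.06 (limma adjusted p = 0.634). The coenzyme A carrier Slc25a42 and the peroxisomal Slc25a17, which moves coenzyme A and nucleotides, differed by -0.15 and -0.20. The NAD carrier Slc25a51 was at 7.27, 7.73, 7.61 and 7.54 in treated and 7.57, 7.48, 7.50 and 7.59 in control livers. Its treated livers enclosed the controls, and the difference of 0.0016 had an interval from -0.20 to 0.21. The pyrimidine nucleotide carriers Slc25a33 and Slc25a36 differed by -0.0032 and 0.08, with Slc25a36 at the level of the negative control rows. Slc25a32, linked to folate and flavin, and the S-adenosylmethionine carrier Slc25a26 differed by -0.10 and -0.0054.

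Iron and glutathione carriers were lower in 3 of 4 members and 0 had an unadjusted limma p under 0.05, against 7.63% of all genes. The glutathione carriers Slc25a39 and Slc25a40 differed by -0.17 and 0.01. Mitoferrin-1 (Slc25a37), the iron importer of erythroid cells, differed by -0.22 and mitoferrin-2 (Slc25a28) by -0.04. Erythroid markers, of which 5 of 10 were measured, had a median difference of 0.0018 and array scores from -0.10 to 0.05 in treated and from -0.02 to 0.02 in control livers. In heme synthesis and iron-sulfur assembly, the steps these carriers supply, 7 of the 10 measured of 12 listed were lower, with a median of -0.08. At an unadjusted limma p under 0.05, 1 was lower, the coproporphyrinogen oxidase gene Cpox (-0.30 ± 0.13), and 0 higher, against 3.37% and 4.26% of all genes. Alas1, the first enzyme of heme synthesis in liver, was at 8.56, 9.45, 10.66 and 9.97 in treated and 10.42, 10.08, 10.95 and 10.81 in control livers. Treated replicates 1, 2 and 4 lay below all controls and treated replicate 3 among them, a difference of -0.91 ± 0.40.

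All 8 carriers with other or uncertain substrates were lower, with a median difference of -0.14. Of the 8, 0 had an unadjusted limma p under 0.05, against 7.63% of all genes in either direction. Slc25a47, a carrier found mainly in liver, was at 10.42, 10.68, 9.96 and 10.33 in treated and 10.67, 10.93, 10.94 and 10.27 in control livers. Treated replicate 3 was the lowest of the 8, but control replicate 4 lay below 3 treated livers, so the groups overlapped. The difference of -0.35 had a 95% interval from -0.76 to 0.06, and leaving out control replicate 4 gave -0.50, treated replicate 3 -0.22. Slc25a45, Slc25a34 and Slc25a35 differed by -0.23, -0.17 and -0.16, and Slc25a46, an outer membrane protein that shapes mitochondria, by -0.12. Slc25a48 differed by -0.12 and the dim Slc25a43 and Slc25a53 by -0.09 and -0.0036.

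**Figure D3:**
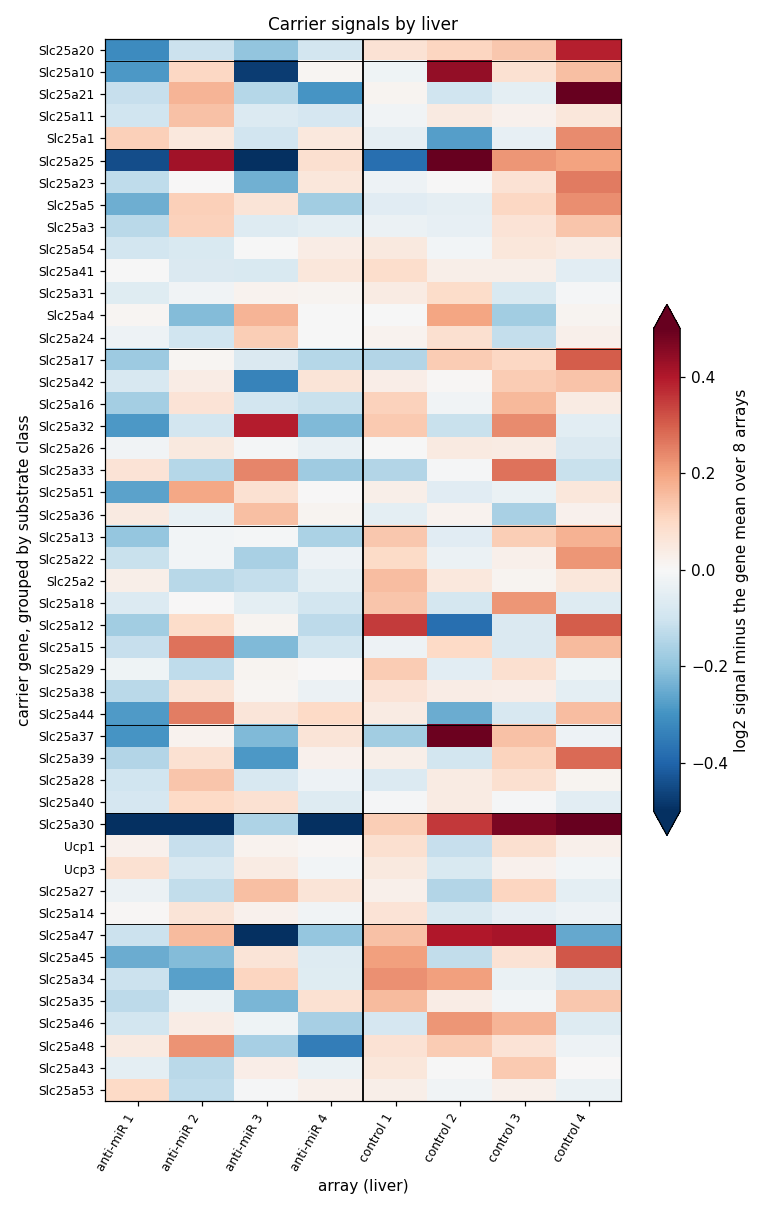
Log2 signal of each carrier minus its mean over the 8 arrays (colour, blue lower and red higher), by liver, with 4 treated livers left of the line and 4 controls right of it and horizontal lines between substrate classes. Treated replicate 1 holds the lowest value for 16 carriers and control replicate 4 the highest for 13, and colours are cut at ± 0.5.

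Livers differed in how far the family as a whole was shifted. The mean score of the 48 carriers was -0.12, -0.0041, -0.06 and -0.06 in treated replicates 1 to 4 and 0.04, 0.03, 0.07 and 0.11 in control replicates 1 to 4. Treated replicate 2 thus stood close to the controls and treated replicate 1 furthest from them. Treated replicate 1 held the lowest signal of the 8 livers in 16 carriers and the highest in 2, while control replicate 4 held the lowest in 1 carrier and the highest in 13. Without Slc25a20 and Slc25a30, the scores of the other 46 carriers were -0.10, 0.02, -0.06 and -0.05 in treated and 0.03, 0.03, 0.06 and 0.07 in control livers, where treated replicate 2 lay just below the lowest control. Over all protein-coding genes the same scores lay between -0.0135 and 0.0147. Treated replicate 1 also had the highest Kupffer cell and macrophage score, 0.70, and the part of such cells in its carrier values was not tested.

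In 4 pairs of carriers no protein-coding gene lies between the members in the RefSeq order. Slc25a47 and its neighbour Slc25a29 on chromosome 12 differed by -0.35 and -0.07, and Slc25a23 and Slc25a41 on chromosome 17 by -0.15 and -0.05. On chromosome X, Slc25a43 and Slc25a5 differed by -0.09 and -0.12. Slc25a54 and Slc25a24 on chromosome 3, both dim, differed by -0.07 and -0.0018. The difference between members of a pair was not tested.

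The machinery that inserts carriers into the inner membrane had more positive than negative differences. Of the 12 import genes measured of 13 listed, 8 were higher and 4 lower, with a median difference of 0.03. The outer membrane pore gene Tomm40 was lower at an unadjusted limma p under 0.05 (-0.17 ± 0.07), and 0 were higher at that level. Of all genes, 3.37% were lower and 4.26% higher at that level. Other mitochondrial channels and carriers were lower in 11 of the 16 measured of 18 listed, with a median of -0.06. Mtch1, a divergent relative of the family in the outer membrane, was at 7.95, 8.22, 8.07 and 8.20 in treated and 8.39, 8.47, 8.25 and 8.37 in control livers, without overlap, a difference of -0.26 ± 0.07. The outer membrane channel gene Vdac3 was higher, by 0.17 ± 0.07, with overlap. Among regulators of mitochondrial genes 10 of the 13 measured of 15 listed were lower, with a median of -0.05. The PPARα gene Ppara was at 9.58, 9.72, 9.73 and 9.63 in treated and 9.86, 9.92, 9.91 and 9.63 in control livers, where control replicate 4 lay among the treated livers, a difference of -0.17 ± 0.07. The coactivator gene Pprc1 differed by -0.11 ± 0.06. The mitochondrial transcription factor gene Tfam differed by 0.09 ± 0.05. None of these genes passed the adjusted test.

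**Figure D4:**
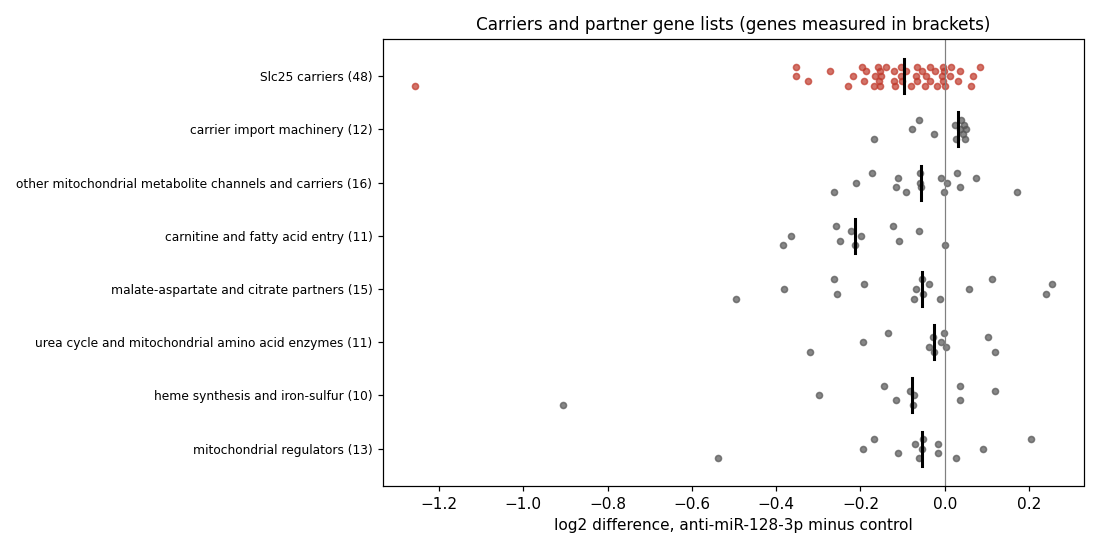
Log2 difference, anti-miR-128-3p minus control, of each gene (points) in the carrier family and in 7 partner lists, with the list median as a black bar. Medians lie at -0.10 for the 48 carriers, -0.21 for carnitine and fatty acid entry and 0.03 for the import machinery.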

How the data were processed

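The deposited values are RMA log2 signals per probe set, per the submitters' processing notes. No source used here names a software version, annotation build or filter. Labels give no slide, scan or batch. Of 72688 rows, 6732 control rows were left out, and 31080 of 65956 transcript probe sets named exactly 1 gene by the platform annotation (names updated through Entrez ID against RefSeq GRCm38.p6), giving 30627 genes, with the brightest probe set on average where a gene had several. The fit used R 4.3.3 and limma 3.58.1 (default lmFit and eBayes, two-sided, no covariate, all 8 arrays), with Benjamini-Hochberg adjustment over all genes. The number of arrays limits precision. Data were simulated for 8 arrays and 30627 genes with each gene's mean and residual spread, drawn independently between genes. In the same simulated data 67 genes were shifted by 0.5, 67 by 1 and 66 by 2 log2 units. There the fit called 70.1% of the 67 genes shifted by 0.5 log2 units, and 10 unshifted genes. Shifted genes were drawn only from those at or above the median signal, where 35 carriers lie. The 70.1% therefore does not cover dimmer carriers or genes that vary together between livers. The larger shifts also ease the Benjamini-Hochberg cut-off that all genes share. In the liver data 0 genes passed it, so the 70.1% overstates the power for a single carrier there. Each p-value sets the difference of the group means against the spread between samples within the groups. Nothing beyond numbered titles says that the samples are separate animals.

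The family, and so its members, and the gene lists were chosen with earlier results of these data known. All array values are given for carriers with an unadjusted p under 0.05 or groups that do not overlap and for a fixed set of liver carriers, other carriers by their difference, and at most 4 genes of a partner list by smallest p, and the fat cell markers as the check of Ucp1. Same-numbered arrays of the 2 groups were not paired in the main fit, since the labels state no pairing. Their deviations from group means correlated at -0.15 to -0.04. Differently numbered arrays were not set beside these values, so they cannot decide whether the numbers pair the mice. Tables and plots used Python 3.11.15, pandas 2.3.3 and matplotlib 3.10.9. Alternatives are given in the closing section, and 1, a filter on the negative control median, was added after the data were seen.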

Additional observations from a re-analysis of the deposited data

Results flagged for a closer look

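In 2 of the 96 groups of 4 livers, 1 liver lay far from the other 3 by Dixon's test at the 95% level, which chance does in about 1 group of 20. Slc25a11, the oxoglutarate-malate carrier, was at 8.86 in treated replicate 2, against 8.61 to 8.64 in the other treated livers. Ucp1, below the negative control median throughout, was at 3.25 in treated replicate 2, against 3.37 to 3.39 in the others.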

How the results depend on the processing

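Under all 20 alternatives 0 carriers were called, an adjusted p under 0.1 included, and 0 were higher at an unadjusted p under 0.05. The 7 lower carriers at that level became 4 with genes below the median signal left out, where 35 carriers were tested. The share of all genes lower at that level in this refit was not counted. In the main fit, which gave the 7 carriers, 745 of the 15314 genes at or above that median were lower at that level. The 4 and the 745 come from different fits and are not alike. With each liver left out 3 to 11 carriers were lower, against 2.44% to 3.81% of all genes. Non-overlapping carriers ran from 2 to 7 lower and from 0 to 1 higher with a liver left out, and the 1 higher came without control replicate 1. The shares of all genes ran from 2.89% to 3.99% lower and from 3.18% to 4.83% higher in those fits. The median stayed between -0.12 and -0.06 over all alternatives (-0.11 to -0.057 with a liver left out), and 38 to 43 of 48 carriers were lower where all were tested. With genes below the median signal left out 32 of 35 carriers were lower, against 50.1% of the genes kept. With the replicate number as a block, 8 carriers were lower at an unadjusted p under 0.05, 0 were called and the median was -0.10. The share of all genes lower in that fit was not counted, so the 8 has no background beside it. Adjusted p by limma was then 0.463 for Slc25a20 and 0.471 for Slc25a30, and the block changed no call. Adjusted p over all alternatives ran from 0.172 to 0.598 for Slc25a20 and from 0.193 to 0.658 for Slc25a30. Of the alternatives 9 cannot move a difference. Under the other 11, 166 of 176 differences of the 16 carriers given in full kept their sign and 10 did not, in Slc25a51, Slc25a1 and Ucp3. Slc25a51 was at -0.0061 with array weights, -0.0077 with quantile normalization and -0.0038 with centred arrays. With a liver left out Slc25a51 ran from -0.062 to 0.091, Slc25a1 from -0.018 to 0.15 and Ucp3 from -0.012 to 0.041. For sign changes the cause was not tested. Each carrier had 1 probe set, so the rules on several probe sets changed none of its values. No detection call accompanies the signals, which limits statements on the 10 dim carriers.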
